A study of Mus musculus with 6 samples.

Results

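Transcripts of 8 components of the insulin signalling cascade were followed in cultured brown adipocytes with and without functional Ucp1, the uncoupling protein of brown fat. The genes were chosen by name for their place in the cascade, from the receptor to the vesicles of the glucose transporter: Insr, Irs1, Irs2, Pik3r1, Akt1, Akt2, Foxo1 and Tbc1d4. Earlier results of these data were known when the genes were chosen. They had 11 of the 28890 RefSeq transcripts in the table, and each gene was represented by its most abundant one. All 8 were among the 16865 transcripts of 12259 genes that had a mean of at least 0.5 RPKM and were tested. RPKM counts the reads on a transcript scaled to its length and to all reads mapped in that culture, so that levels can be set side by side between genes.

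The cells came from interscapular brown adipose tissue (BAT) of male 129SvEvS1 mice aged 5 to 6 wk, either wildtype (WT) or UCP1(-/-), here Ucp1-KO. Precursors of both genotypes received an induction medium for 2 d and differentiation medium up to day 7, and insulin, T3 and the PPARγ agonist rosiglitazone were present in both media. All 6 cultures had therefore been exposed to insulin, and the sources used here do not say whether it was withdrawn before RNA was collected. WT was represented by replicates 10, 11 and 12 and Ucp1-KO by replicates 13, 14 and 15, each of them 1 culture. Mice of the Ucp1-KO line lack the functional gene in every cell, and the animals behind a culture are not given, so p-values measure the spread between these 6 cultures only.

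The totals behind the values were between 14989604 and 17727653 reads per culture. The targeted gene stood at 1775, 981 and 1157 RPKM in WT and at 307, 409 and 398 RPKM in Ucp1-KO cultures, and what was left in Ucp1-KO was 28.4% of WT. The paper that reported these cultures attributes this rest to a non-functional transcript without some of the exons. Adipocyte markers (Adipoq, Fabp4, Plin1, Lipe, Pparg, Cebpa and Cidea) summed to between 29460 and 31070 RPKM in WT and between 30040 and 33260 RPKM in Ucp1-KO, and all 7 were present in every culture. Markers of stromal cells and preadipocytes summed to between 1094 and 2405 RPKM in WT, highest in replicate 11, and to between 993 and 1534 RPKM in Ucp1-KO. Macrophage markers ranged from 58.9 to 182 RPKM in WT and from 42.5 to 807 RPKM in Ucp1-KO, where replicate 14 stood apart. Endothelial markers did not exceed a sum of 34.9 RPKM. Skeletal muscle markers summed to between 7.60 and 14.8 RPKM in WT and between 7.69 and 28.0 RPKM in Ucp1-KO, and Myod1, Myh2 and Myh4 were under 0.1 RPKM in all 6 cultures.

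Insulin binds a receptor tyrosine kinase, which phosphorylates docking proteins of the Irs family. These recruit PI3-kinase to the membrane, and the lipid it makes activates the Akt kinases. Akt in turn keeps the transcription factor Foxo1 out of the nucleus and inactivates Tbc1d4, a brake on the vesicles that carry the glucose transporter Glut4 (Slc2a4) to the cell surface. In brown fat, insulin is known to drive glucose uptake, lipogenesis and the differentiation of precursors.

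Genotypes were compared to ask whether adipocytes without functional Ucp1 carry other amounts of these mRNAs. The genes of the docking proteins Irs1 and Irs2 were 40% and 32% more abundant on average in Ucp1-KO than in WT, and every Ucp1-KO culture lay above every WT culture for both. The other 6 genes overlapped between genotypes, and 0 of the 8 had every Ucp1-KO culture below every WT culture, beside 5.15% of all transcripts. Groups that did not overlap in either direction made up 11.2% of all transcripts. No member passed an adjusted p of 0.05 in limma, and neither did any of the 16865 transcripts, of which 0% were called and whose smallest adjusted p was 0.868. This includes Ucp1, the gene that was targeted, which was place 1 by unadjusted p (0.000157) and had an adjusted p of 0.868 in limma. Without adjustment, 2 of the 8 members were higher and 0 lower at a limma p under 0.05, beside 2.30% and 3.24% of all transcripts. Regardless of p, 7 of the 8 were higher, beside 49.6% of all transcripts, but 4 of the 8 when levels were taken relative to adipocyte markers, where Insr, Akt2 and Foxo1 turned lower. The median log2 fold change of the 8 was 0.13, beside -0.0016 for all transcripts tested. Because the members were chosen with earlier results of these data known, these shares describe the 8 genes and do not test them as a set.

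**Figure D1:**
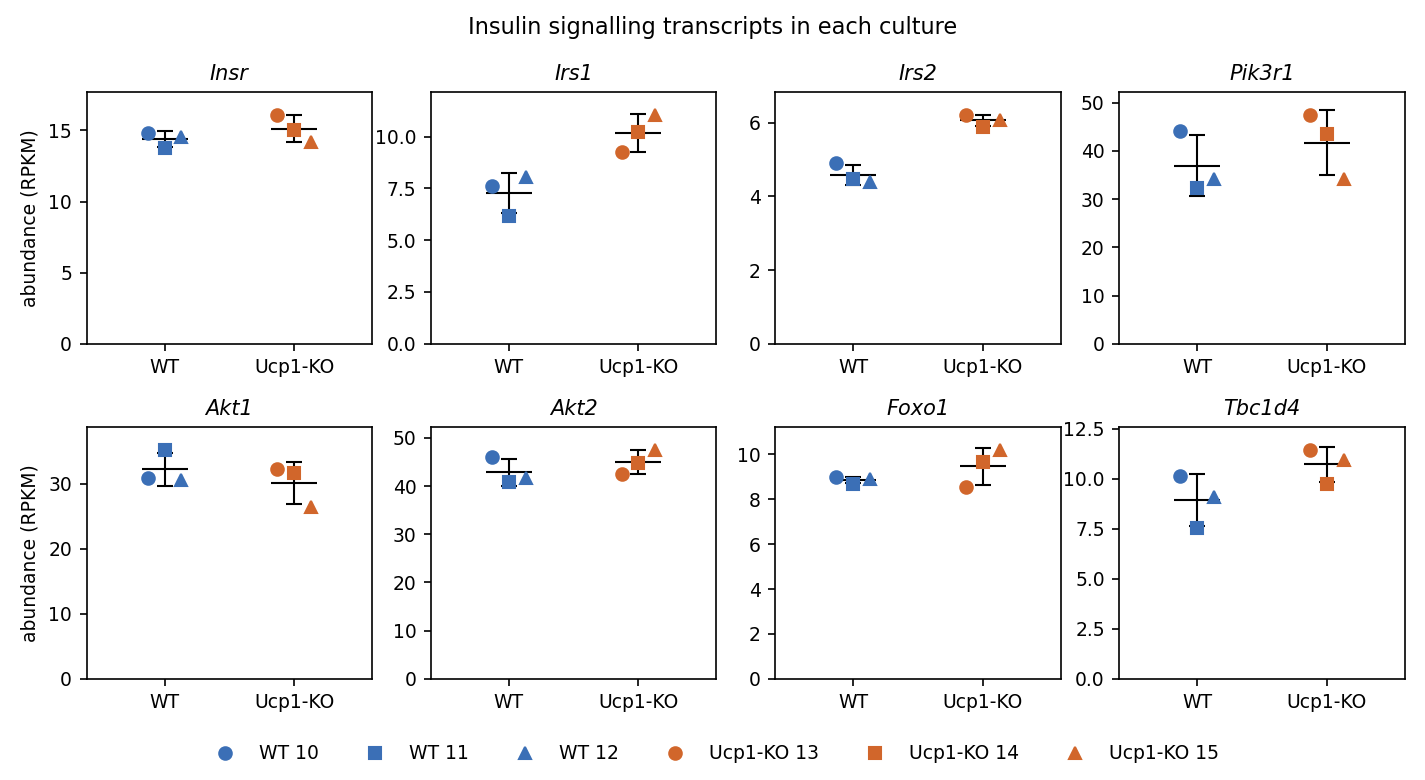
Abundance in RPKM (vertical axes, each from 0) of the 8 genes in the 3 WT and the 3 Ucp1-KO cultures, with 1 point per culture a bar at the group mean and whiskers of 1 SD. The points of the genotypes are apart for Irs1 and Irs2 only, from 6.19 to 8.03 against 9.24 to 11.1 RPKM and from 4.38 to 4.90 against 5.90 to 6.22 RPKM.

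Insr, the insulin receptor (GRCm38 chr8:3150922-3279649), was measured at 14.8, 13.8 and 14.5 RPKM in WT and at 16.1, 15.1 and 14.2 RPKM in Ucp1-KO. The genotypes overlapped, and the log2 fold change of RPKM + 1 was 0.07 ± 0.09 (SE, 3 cultures per genotype), with a 95% interval from -0.14 to 0.28 and an adjusted p of 0.922 in limma. Between 1989 and 2431 reads lay behind each value, so that counting error was at most 2.24%.

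The promoters of Irs1 and Irs2 are shown because these are the members whose genotypes were apart. Each window holds the 250 bases before the RefSeq transcription start (GRCm38.p6, reverse strand), 5′ to 3′, and capitals mark the E-box CACGTG and the letters TGTTTTG, known from insulin-responsive promoters as an insulin response element bound by FoxO factors.
Irs1, chr1:82291440-82291689: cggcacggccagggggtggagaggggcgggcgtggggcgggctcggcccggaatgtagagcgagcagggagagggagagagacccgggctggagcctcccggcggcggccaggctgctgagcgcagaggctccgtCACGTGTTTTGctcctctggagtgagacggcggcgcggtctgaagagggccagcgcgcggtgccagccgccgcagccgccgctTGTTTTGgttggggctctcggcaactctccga
Irs2, chr8:11008930-11009179: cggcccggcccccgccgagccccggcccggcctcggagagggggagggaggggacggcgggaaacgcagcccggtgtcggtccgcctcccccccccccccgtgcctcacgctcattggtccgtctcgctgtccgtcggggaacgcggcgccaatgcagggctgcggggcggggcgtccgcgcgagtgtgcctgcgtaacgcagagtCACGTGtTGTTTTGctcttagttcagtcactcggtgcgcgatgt
In the Irs1 window the E-box lies 115 to 110 bases before the start and TGTTTTG lies at 111 to 105 and again at 32 to 26, so that the E-box and the first TGTTTTG share 2 letters. In the Irs2 window the E-box lies at 44 to 39 and TGTTTTG at 37 to 31, with 1 base between them. Both strands were searched, and the letters were chosen after the windows had been read. Of 32526 mouse promoter windows of this length, 6.04% hold the E-box, 5.6% hold TGTTTTG and 0.298% hold both. The other letters searched were TGTTTAC, a FoxO core site present in 3.17% of windows, and TGACGTCA, a cyclic AMP response element present in 1.56%. TGTTTAC was found once among the members, in a window of Akt1 at 161 to 155, and TGACGTCA in none. The promoter table used here had entries for 7 of the 8 members, with 12 windows, and the promoter of Insr was not analysed here. A match is a run of letters, and binding was not measured here.

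Irs1, the first docking protein of the receptor (chr1:82233105-82291439), was measured at 7.61, 6.19 and 8.03 RPKM in WT and at 9.24, 10.2 and 11.1 RPKM in Ucp1-KO. All 3 Ucp1-KO cultures were above all 3 WT cultures, as was the case for 6.04% of all transcripts tested. Means were 7.28 ± 0.966 and 10.2 ± 0.905 RPKM (SD, n = 3 each), and the exact two-sided permutation p was 0.1, the smallest that 3 against 3 cultures can give. The log2 fold change was 0.44 ± 0.12 (SE) with a 95% interval from 0.15 to 0.73, an unadjusted p of 0.00958 and an adjusted p of 0.868 in limma.

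Irs2, its paralog and an established FoxO target gene (chr8:10984681-11008929), was measured at 4.90, 4.46 and 4.38 RPKM in WT and at 6.22, 5.90 and 6.08 RPKM in Ucp1-KO. The groups did not overlap, and the SD within a genotype, 0.28 RPKM for WT and 0.161 for Ucp1-KO, was small beside the difference between means of 4.58 and 6.06 RPKM. The exact permutation p was 0.1. The log2 fold change was 0.34 ± 0.09 (SE) with a 95% interval from 0.12 to 0.56, an unadjusted p of 0.00817 and an adjusted p of 0.868 in limma. Irs2 was place 115 and Irs1 place 136 of 16865 when transcripts were ordered by unadjusted p. Irs2 rested on 299 to 408 reads per culture and thus on a counting error of up to 5.78%, while Irs1 rested on 946 to 1617 reads.

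The ratio of Irs1 to Irs2 was 1.55, 1.39 and 1.83 in WT and 1.49, 1.74 and 1.82 in Ucp1-KO. These ratios overlapped between genotypes (exact permutation p = 0.7). No shift between the paralogs was detectable with 3 cultures per genotype.

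In bulk RNA, a greater share of adipocytes and more RNA per adipocyte cannot be told apart. On the log2(RPKM + 1) scale, all 7 adipocyte markers were higher in Ucp1-KO, beside 49.6% of all transcripts tested. Their log2 fold changes ran from 0.02 (Lipe) to 0.43 (Cidea), with a smallest unadjusted p of 0.108 in limma. In turn, 11 of 11 stromal markers tested were lower, although the mean RPKM of Ly6a was higher (122 against 114). Among the 11 were the matrix genes Dcn (unadjusted p = 0.00513) and Lum (unadjusted p = 0.0232) in limma, at an adjusted p of 0.868 for both. Dlk1, a listed stromal marker under the abundance minimum, was higher in Ucp1-KO (0.431 against 0.228 RPKM), with overlapping genotypes. Levels relative to the mean of the adipocyte markers in the same culture were an alternative chosen after seeing the data. On this log2 scale Irs1 was higher in Ucp1-KO by 0.28 and Irs2 by 0.18, against 0.44 and 0.34 without it. The genotypes lay apart for both (exact permutation p = 0.1 for both). The part of the share of adipocytes in the Irs1 and Irs2 differences was not tested.

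**Figure D2:**
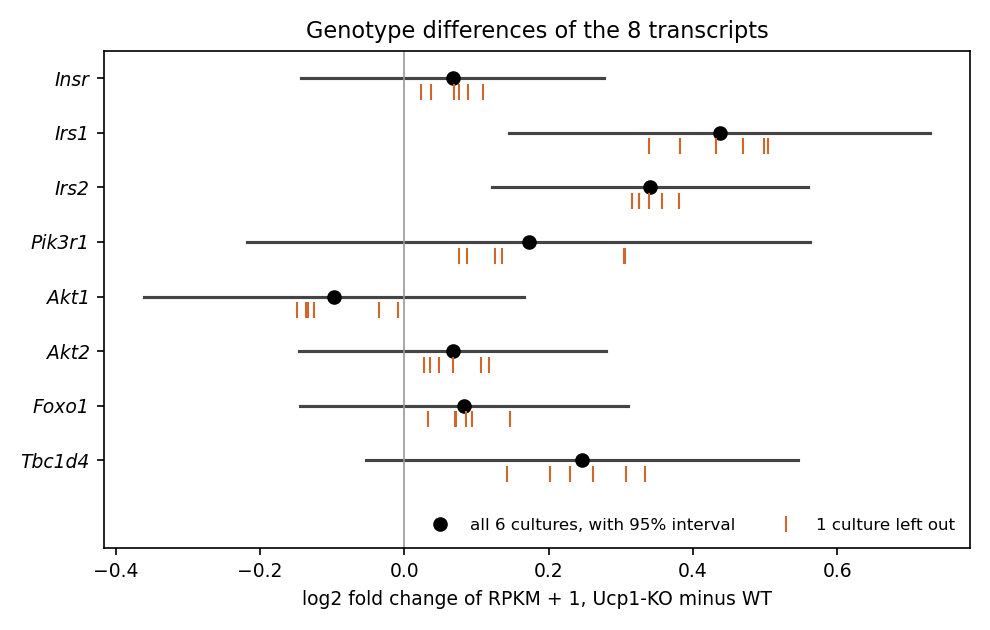
Log2 fold change of RPKM + 1 between Ucp1-KO and WT (horizontal axis) for the 8 genes, as black points with 95% intervals from limma, and orange ticks for the value when 1 culture is left out. The intervals of Irs1 (0.15 to 0.73) and Irs2 (0.12 to 0.56) exclude 0 before adjustment, and every other interval includes it.

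Pik3r1, which encodes the regulatory subunits of PI3-kinase (chr13:101680761-101768217), was measured at 44.2, 32.4 and 34.3 RPKM in WT and at 47.5, 43.6 and 34.2 RPKM in Ucp1-KO. The genotypes overlapped and the spread within each was wide, with CVs of 17.1% and 16.3%. The log2 fold change was 0.17 ± 0.16 (SE; 95% interval -0.22 to 0.56; adjusted p = 0.895 in limma). Its other RefSeq transcript, which is shorter and shares exons with the first, gave 0.14.

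Akt1, a kinase of growth and survival (chr12:112653821-112674884), was the member with a lower mean in Ucp1-KO. It was measured at 31.0, 35.2 and 30.6 RPKM in WT and at 32.3, 31.7 and 26.4 RPKM in Ucp1-KO. The genotypes overlapped, with a log2 fold change of -0.10 ± 0.11 (SE; 95% interval -0.36 to 0.17; adjusted p = 0.909 in limma).

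Akt2, the isoform of the kinase most tied to glucose metabolism (chr7:27591552-27640826), was measured at 46.0, 40.9 and 41.7 RPKM in WT and at 42.5, 44.9 and 47.5 RPKM in Ucp1-KO. The log2 fold change was 0.07 ± 0.09 (SE; 95% interval -0.15 to 0.28; adjusted p = 0.924 in limma), and the genotypes overlapped. The ratio of Akt1 to Akt2 was 0.673, 0.861 and 0.733 in WT and 0.76, 0.706 and 0.556 in Ucp1-KO, so that Akt2 was the more abundant in all 6 cultures (exact permutation p between genotypes = 0.5). Adjusted over both ratios, p was 0.7 for each.

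Foxo1, a transcription factor that Akt inactivates (chr3:52268337-52350109), was measured at 8.99, 8.69 and 8.88 RPKM in WT and at 8.55, 9.63 and 10.2 RPKM in Ucp1-KO. WT replicates had a CV of 1.73%, and Ucp1-KO replicates spread to both sides of them. The log2 fold change was 0.08 ± 0.10 (SE; 95% interval -0.14 to 0.31; adjusted p = 0.91 in limma).

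Tbc1d4, the Akt substrate that holds back Glut4 vesicles (chr14:101442360-101609281), was measured at 10.1, 7.55 and 9.09 RPKM in WT and at 11.5, 9.76 and 10.97 RPKM in Ucp1-KO. The genotypes overlapped by a single pair of cultures, since WT replicate 10 exceeded Ucp1-KO replicate 14. The log2 fold change was 0.25 ± 0.13 (SE; 95% interval -0.05 to 0.55; adjusted p = 0.871 in limma).

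The table also lists these genes under annotations other than RefSeq, and rows of a gene may share reads. They come from the same 6 cultures and are not independent of each other. All 6 rows of Irs1 with a mean of at least 0.5 RPKM had a Ucp1-KO to WT ratio between 1.39 and 1.42, and both rows of Irs2 had 1.32. In each of these rows every Ucp1-KO culture lay above every WT culture. Insr had 7 rows with ratios from 1.04 to 1.12, Pik3r1 8 rows from 1.09 to 1.29 and Foxo1 9 rows from 1.02 to 1.13. For Akt1, 10 of 12 rows were below 1, and for Akt2, 19 of 21 were above 1. The 17 rows of Tbc1d4 varied most, from 1.13 to 1.61, and 3 of them had every Ucp1-KO culture above every WT culture. This was so for 1 row of Insr, 1 of Akt2 and no row of Pik3r1, Akt1 or Foxo1, beside 6.47% of the rows of all annotations.

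**Figure D3:**
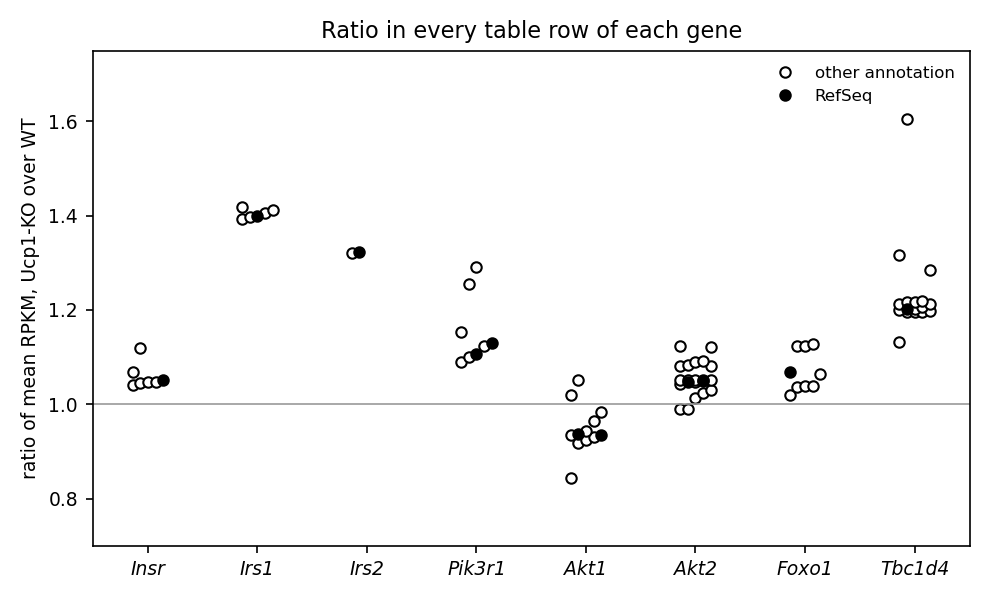
Ratio of mean RPKM in Ucp1-KO to mean RPKM in WT for every row of each gene with a mean of at least 0.5 RPKM, RefSeq rows and rows of other annotations marked apart. Rows of Irs1 and Irs2 lie close together at 1.39 to 1.42 and at 1.32, whereas rows of Tbc1d4 spread from 1.13 to 1.61.

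The members also differed in level. Averaged over the 6 cultures, Akt2 (43.9 RPKM), Pik3r1 (39.4) and Akt1 (31.2) were the most abundant, followed by Insr (14.7), Tbc1d4 (9.83), Foxo1 (9.16), Irs1 (8.73) and Irs2 (5.32). Akt2 was place 1293 and Irs2 place 7296 among the 12259 genes. Neighbours in this order were compared within cultures by exact sign-flip tests, with p adjusted over the 7 pairs. Akt1 exceeded Insr in 6 of 6 cultures by 1.03 on the log2 scale of RPKM + 1, Insr exceeded Tbc1d4 in 6 of 6 by 0.55 and Irs1 exceeded Irs2 in 6 of 6 by 0.61. Each of these had an unadjusted exact p of 0.031, the smallest that 6 cultures can give, and an adjusted p of 0.0729, past the 0.05 threshold only before adjustment. With RefSeq rows of a gene summed, which counts shared reads again, Akt1 exceeded Insr by 1.995. Akt2 and Pik3r1 (adjusted exact p = 0.219), Pik3r1 and Akt1 (0.109), Tbc1d4 and Foxo1 (0.401) and Foxo1 and Irs1 (0.406) did not pass 0.05 before or after adjustment. The first of each pair was above the other in 5 of 6 cultures for Akt2 and Pik3r1, Pik3r1 and Akt1, and Tbc1d4 and Foxo1, and in 3 of 6 for Foxo1 and Irs1.

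**Figure D4:**
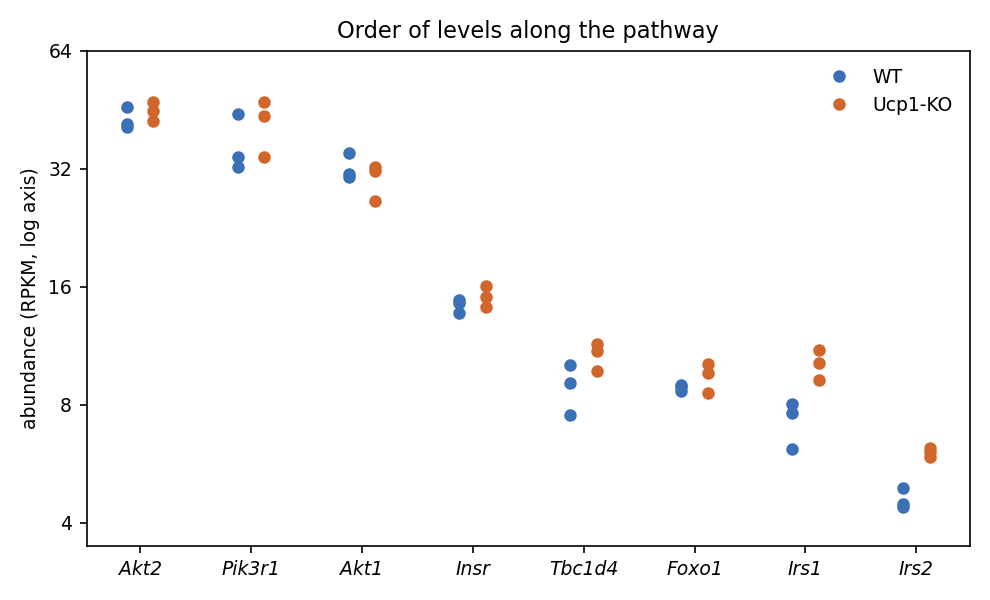
Levels of the 8 genes in RPKM on a log axis, ordered by the mean over 6 cultures, with 1 point per culture and genotype marked by colour. The 3 genes of PI3-kinase and Akt lie between 26.4 and 47.5 RPKM, and the other 5 genes lie below 16.1 RPKM or at it.

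Paralogs with the same role were compared as shares of their summed RPKM. Insr made up 89.4%, 85.5% and 88.2% of Insr plus Igf1r, the receptor of insulin-like growth factor, in WT and 90.8%, 92.6% and 91.0% in Ucp1-KO. The shares did not overlap between genotypes (exact permutation p = 0.1), and the level of Igf1r was 1.76, 2.33 and 1.95 RPKM in WT and 1.63, 1.21 and 1.41 RPKM in Ucp1-KO (unadjusted p = 0.0435, adjusted p = 0.868 in limma). The third docking protein, Irs3, contributed 12.2% to 28.3% of the Irs transcripts. Pik3r1 held 72.9% to 80.4% of the regulatory subunits, the rest being Pik3r2 and Pik3r3. Among the FoxO factors Foxo4 was the most abundant, with 45.3% to 54.5%, ahead of Foxo1 with 29.2% to 37.8% and Foxo3 with 12.9% to 20.7%. Tbc1d4 held 64.3% to 76.8% of its sum with Tbc1d1, and Slc2a4 held 58.3% to 83.8% of its sum with Slc2a1, the insulin-independent transporter. None of these other shares was apart between genotypes.

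The gene lists, too, were chosen with earlier results of these data known. Of 93 genes listed for the pathway, members included, 89 passed the abundance minimum, 40 higher and 49 lower in Ucp1-KO. None passed an adjusted p of 0.05 in limma. At an unadjusted p under 0.05 there were 2 higher, Irs1 and Irs2, and 6 lower, or 8.99% of the list beside 5.54% of all transcripts. These counts depended on single cultures, with 6 higher and 10 lower without WT replicate 10, 5 higher without Ucp1-KO replicate 15, and 2 and 3 lower without WT replicates 11 and 12. Inhibitors of the cascade were lower in 15 of 20 cases, with a median log2 fold change of -0.15 and 3 of them lower at an unadjusted p under 0.05. Of all transcripts, 49.6% were higher at any p and 3.24% were lower at an unadjusted p under 0.05. Socs3, a feedback inhibitor that acts on the Irs proteins, was measured at 4.95, 10.9 and 5.93 RPKM in WT and at 3.60, 3.65 and 1.47 RPKM in Ucp1-KO (log2 fold change -1.07, unadjusted p = 0.0164 in limma). Trib2, a pseudokinase that binds Akt, had a log2 fold change of -0.53, and Ptprf, a receptor phosphatase, had -0.62 (unadjusted p = 0.0095 and 0.023 and adjusted p = 0.868 for both in limma). The others below 0.05 were Rab13, a small GTPase of vesicle traffic (-0.31, unadjusted p = 0.013), Igf1r (-0.32) and the adaptor Shc1 (-0.31, unadjusted p = 0.0484), each with an adjusted p of 0.868 in limma. Shc1 is named although only the 5 lowest p-values were to be named. Genotypes did not overlap in any of these 6 lower genes, beside 5.15% of all transcripts with every Ucp1-KO culture below every WT culture. The 6 were picked by their p, which favours groups that do not overlap. WT replicate 11 had the highest value of Socs3, Ptprf, Rab13, Igf1r and Shc1 and the highest sums of stromal and endothelial markers. Endothelial markers summed to 34.9 RPKM in that culture and to between 2.93 and 16.4 RPKM in the others, and 5 of 5 tested were lower in Ucp1-KO, with a median log2 fold change of -0.41. The part of other cell types in these 6 values was not tested.

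**Figure D5:**
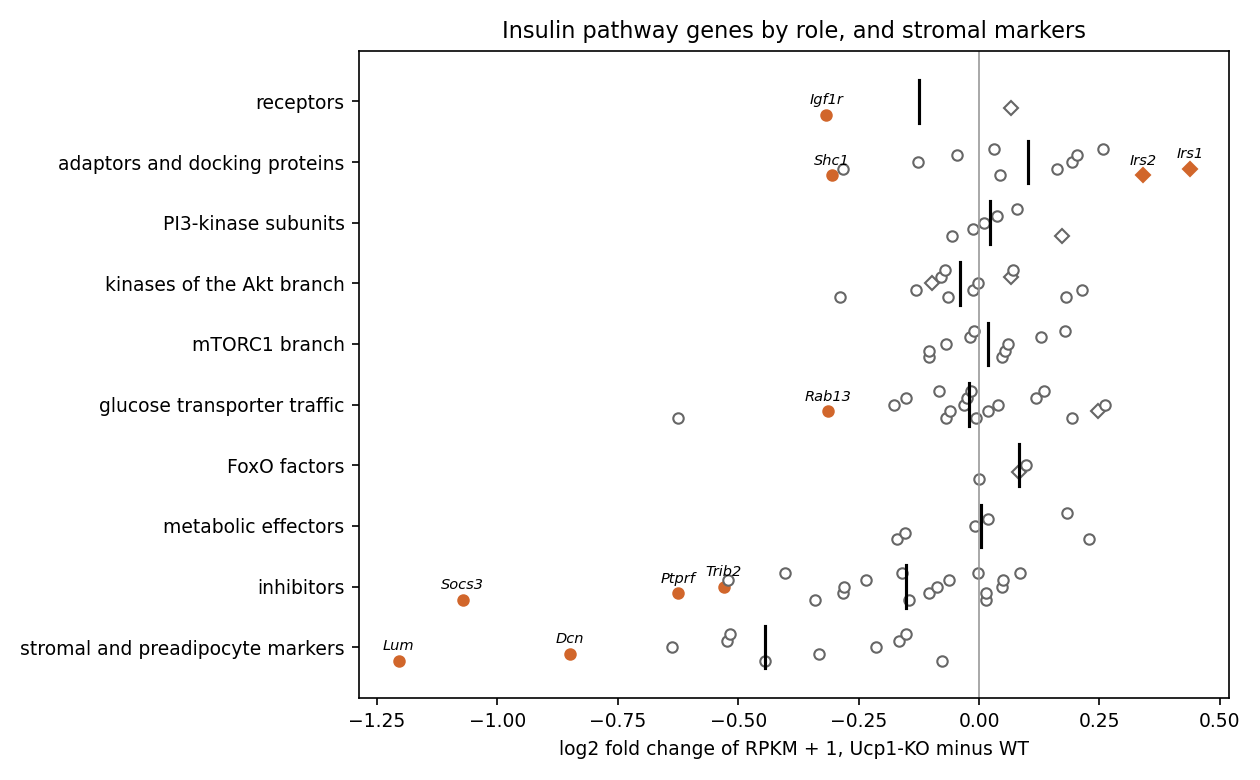
Log2 fold change of RPKM + 1 between Ucp1-KO and WT (horizontal axis) for the pathway genes tested, by role, and for the stromal markers in the bottom line. Diamonds mark the 8 members, orange fill an unadjusted limma p under 0.05 and black bars the median of a list, which is -0.15 for the inhibitors and -0.44 for the stromal markers.

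The receptors, Insr and Igf1r, had a median log2 fold change of -0.13. Adaptors and docking proteins had 8 of 12 genes higher and a median log2 fold change of 0.10. PI3-kinase subunits had a median of 0.02 over 6 genes and kinases of the Akt branch -0.04 over 12. The mTORC1 branch, which controls protein synthesis, had 5 of 10 genes higher and was led by Eif4ebp1 at 280 RPKM. Genes of glucose transporter traffic had 7 of 18 higher. Slc2a4 itself was at 124, 81.6 and 90.2 RPKM in WT and at 109, 98.5 and 113 RPKM in Ucp1-KO, which overlapped (log2 fold change 0.13, adjusted p = 0.912 in limma). Fasn, the fatty acid synthase and most abundant of the metabolic effectors, was at 732, 434 and 466 RPKM in WT and spread from 297 to 1118 RPKM in Ucp1-KO. Ppp2ca, a catalytic subunit of the phosphatase that removes phosphate from Akt, led the inhibitors at 125 RPKM.

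Among 106 genes of the pathway and FoxO target lists, the profile most like that of Irs1 over the 6 cultures was the one of Irs2, with a root-mean-square difference of 0.137 on the centred log2 scale. That of Irs2 was closest to Pdpk1, the kinase that activates Akt (0.089). Akt2 was closest to Foxo1 (0.049), Foxo1 to Rps6kb2 (0.032), Insr to Eif4e (0.03), Akt1 to Pnpla2 (0.056), Pik3r1 to Mtor (0.088) and Tbc1d4 to Lnpep (0.066), a protein of the Glut4 vesicles. The profiles span both genotypes, so the match of Irs1 with Irs2 includes the genotype difference already given for each. A flat profile is close to other flat profiles, so these root-mean-square differences describe the 6 cultures and no more.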

How the data were processed

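RNA of 3 WT and 3 Ucp1-KO cultures had been sequenced in single reads (50 bases). The deposited RPKM values, 1 column per culture, come from the authors, who used Genomatix software and mouse genome build 38. Reads without a unique assignment do not enter them, so genes with near-identical copies may be understated. Genotype came from the sample labels. RefSeq transcripts averaging 0.5 RPKM or more entered a limma comparison (version 3.58.1, R 4.3.3, empirical Bayes with an intensity trend, log2(RPKM + 1), no covariates), with Benjamini-Hochberg adjustment over all 16865. A fold change on this scale understates that of low genes. Single values were compared by exact two-sided permutation tests. Python 3.11.15 with numpy 2.4.6, pandas 2.3.3 and matplotlib 3.10.9 was used for the rest. Scripts were tested on simulated data.

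RPKM does not state reads. Low values lie on a grid whose step is a single read, from which culture totals were computed with Ensembl transcripts of known length (GENCODE M21), of whose low values 94.21% to 94.58% came out whole to within 0.02. Lengths of RefSeq transcripts were searched for, taking the shortest that gave whole reads in all 6 cultures, and 1 was found for 100% of those tested. Counting errors cover counting only, since reads carried no molecular identifiers. Promoters and coordinates are from RefSeq on GRCm38.p6.

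The members and gene lists were chosen with earlier results of these data known. Named are the 8 members, their paralogs and Slc2a4, any listed gene at an adjusted p under 0.05, the most abundant gene of each list, the 5 higher and 5 lower pathway genes with the smallest unadjusted p under 0.05, and the nearest profile of each member. The alternatives were 0.1 RPKM in place of 1, no minimum abundance, 1 transcript per gene, all annotations, median-of-ratios scaling, limma-voom on recovered reads, leaving out each culture and, for levels, the sum over the RefSeq rows of a gene. Levels relative to adipocyte markers were added after seeing the data. No culture was left out of the main comparison. Some genes that this rule would name are left out.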

Additional observations from a re-analysis of the deposited data

How the results depend on the processing

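No paired analysis was made because WT and Ucp1-KO cultures share no replicate number. Whether any of them were prepared side by side is not given in the sources used here. Irs1 and Irs2 kept their direction and an unadjusted p under 0.05 in all 12 alternatives to the limma comparison, with log2 fold changes from 0.34 to 0.50 and from 0.31 to 0.40 and adjusted p-values from 0.415 to 0.999 and from 0.407 to 0.999. Tbc1d4 ranged from 0.14 to 0.33, with an unadjusted p of 0.0399 without WT replicate 10 and above 0.05 otherwise. No other member passed that p, and no member changed sign in these 12, but sizes moved: Insr ranged from 0.02 to 0.11, Pik3r1 from 0.08 to 0.31, Akt1 from -0.15 to -0.01, Akt2 from 0.03 to 0.12 and Foxo1 from 0.03 to 0.15. Relative to adipocyte markers, Insr (-0.091), Akt2 (-0.0909) and Foxo1 (-0.0745) turned lower in Ucp1-KO, Pik3r1 (0.01) and Tbc1d4 (0.09) came closer to 0 and Akt1 was at -0.26. For Akt2 the genotypes then lay apart (exact permutation p = 0.1). No transcript passed an adjusted p of 0.05 in limma or limma-voom under any alternative, while 935 passed an unadjusted p of 0.05 in the comparison as reported. This was 5193 with all annotations, which count a gene several times, and 317 to 1754 when 1 culture was left out. Pathway genes at that p numbered 2 to 6 higher and 2 to 10 lower when 1 culture was left out, against 2 and 6. It was 6 higher and 10 lower without WT replicate 10, 5 higher without Ucp1-KO replicate 15, and 2 lower without WT replicate 11 and 3 without WT replicate 12. The log2 difference in the Irs1 to Irs2 ratio, 0.0838, ranged from -0.01043 to 0.1904 when 1 culture was left out, and was negative without WT replicate 11. With 3 cultures per genotype, exact tests cannot reach 0.05, and sign-flip tests over 5 cultures not below 0.0625.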

Other observations

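FoxO target genes are those listed here as targets of Foxo1 and its paralogs, many of them switched on when insulin signalling is low. Whether FoxO factors switch on each of them in these cells was not tested. Of 23 listed, 20 were tested, 6 higher and 14 lower in Ucp1-KO, with a median log2 fold change of -0.07, where 49.6% of all transcripts tested were higher. None passed an adjusted p of 0.05 in limma, and Irs2 and Pck1 were higher at an unadjusted p under 0.05, as were 2.30% of all transcripts. Pck1, which encodes an enzyme of glyceroneogenesis in fat, was measured at 76.2, 91.6 and 88.6 RPKM in WT and at 90.3, 121 and 118 RPKM in Ucp1-KO. The genotypes overlapped between WT replicate 11 and Ucp1-KO replicate 13 (log2 fold change 0.35, unadjusted p = 0.0424, adjusted p = 0.868 in limma). Pnpla2, the lipase of the first step of lipolysis and the most abundant of the list, was at 735, 796 and 740 RPKM in WT and at 825, 744 and 662 RPKM in Ucp1-KO, which overlapped.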
